A study of Mus musculus with 10 samples.

Results

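Meningeal fibroblast genes were followed in the hypothalamus of mice carrying the C26 colon adenocarcinoma, a transplanted tumour under which mice waste. The 10 members, Dcn, Bgn, Lum, Ogn, Mgp, Igf2, Igfbp2, Slc6a13, Slc22a6 and Aldh1a2, are known fibroblast transcripts named by symbol. No threshold on measured values chose them, but the list was drawn up with earlier results of these data known, so their shared direction is a description. Each gene was read from the brightest probe set that the platform annotation pairs with that gene alone, and all 10 were among the 12978 genes tested. All animals were male CDF1 mice, a cross of BALB/c and DBA/2, 10 to 11 weeks old at the time given in the labels, anaesthetised with isoflurane and injected under the skin of the right flank with 0.2 ml of Hank's balanced salt solution. In the tumour-bearing group this volume carried 1000000 C26 cells, in the control group no cells, and the hypothalamus was removed on day 20. Single animals were arrayed from 3 controls and 5 tumour-bearing mice. A further control array held RNA combined from 4 mice and a further tumour-bearing array RNA combined from 5. The labels do not give the identity of the animals in these pools, whose values are set beside the tests. The transplanted tumour line and a single time point limit the groups as a model, and the labels give no tumour size or body weight for a mouse.

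The meninges are the membranes around the brain, and their fibroblasts lay down a collagen matrix on which the surface of the brain rests. The same kind of cell follows larger vessels into the tissue in the perivascular space. These cells take up solutes from the cerebrospinal fluid and make retinoic acid and insulin-like growth factor 2, and a dissected hypothalamus carries some of them on its ventral surface. In bulk tissue, fewer fibroblasts and less RNA per fibroblast cannot be told apart.

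None of the 10 genes passed the test between the groups (limma, Benjamini-Hochberg adjusted p from 0.400 to 0.922 over the 10). Over all genes tested, 10 passed, which is 0.0771%. The sign of the difference was nevertheless the same for most of the list: 9 of 10 members had a lower mean in tumour-bearing mice, against 54.5% of all genes, and the tumour-bearing pool lay below the control pool for the same 9 (52.7% of all genes). Below 0 in both the single arrays and the pools were 34.0% of all genes. The exception in both was Mgp, which was higher in tumour-bearing mice. The pools may hold RNA of the same animals, so their signs are not a separate replication. At an unadjusted p under 0.05 limma listed 2 members as lower, Igfbp2 and Aldh1a2, where 6.51% of all genes were lower, and 1 member as higher, Mgp, where 3.78% were higher. Those 3 of 10 compare with 10.3% of all genes in either direction. The count of 2 was 5 without control mouse 2, 0 without control mouse 3, 1 without control mouse 1 or tumour-bearing mouse 1, and 3 without tumour-bearing mouse 2, 3 or 5. The median difference of the 10 was -0.33 on the log2 scale, against -0.01 for all genes tested, and -0.21 without tumour-bearing mouse 5. Igf2 alone of the 10 crossed to the other sign when 1 animal was left out, so that 8 members were lower without control mouse 3 or without tumour-bearing mouse 5.

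**Figure D1:**
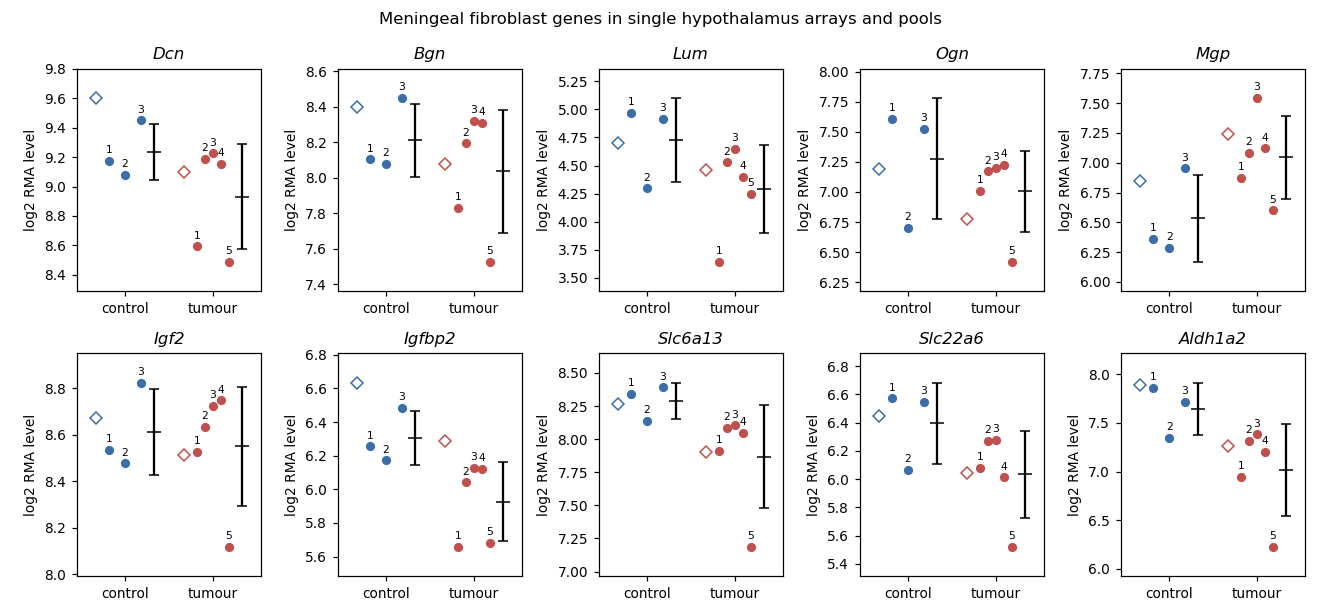
Log2 RMA level (y axis, scaled per gene) of each of the 10 genes in 3 control mice (blue) and 5 tumour-bearing mice (red), numbered by animal. Open diamonds are the pools, and the black mark with its bar is the mean ± SD of the single arrays. Tumour-bearing mouse 5 is the lowest of the 8 for 7 genes, and Mgp is the gene with a higher tumour-bearing mean.

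Levels are log2 values made with RMA, the summary method named in the submitters' processing notes, and a level of 1 probe set cannot be set against that of another. A difference is the tumour-bearing mean minus the control mean on that scale, with the standard error (SE) of the limma fit.

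The proteoglycans come first. Decorin (Dcn), biglycan (Bgn), lumican (Lum) and osteoglycin (Ogn) are small leucine-rich proteoglycans, secreted proteins that bind collagen fibrils and set their spacing. In RefSeq's gene order on GRCm38.p6 Dcn, Lum, Kera and Epyc follow each other on chromosome 10, and Aspn, Omd and Ogn follow each other on chromosome 13, so that part of the family sits in clusters.

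The Dcn level was 9.18, 9.08 and 9.45 in controls 1 to 3 and 8.59, 9.19, 9.22, 9.15 and 8.49 in tumour-bearing mice 1 to 5. Tumour-bearing mice 1 and 5 lay below every control, and the other 3 lay among the controls. The difference was -0.31 ± 0.18 SE (limma adjusted p = 0.606), and -0.20 without tumour-bearing mouse 5 or without control 3. The pools stood at 9.60 in controls and 9.10 in tumour-bearing mice.

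For Lum the control levels were 4.97, 4.30 and 4.91 and the tumour-bearing levels 3.64, 4.53, 4.65, 4.40 and 4.25. Lum was the 1 member not above the filter level of 4.32 on every array, with 5 of 8 above it, and control 2 was just under that level. Its difference of -0.43 ± 0.25 SE (limma adjusted p = 0.586) came to -0.29 when values under the filter level were raised to it. Mouse 1 had the lowest Lum level of all animals, and without it the difference was -0.27.

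Ogn gave 7.61, 6.70 and 7.53 in controls, which is the widest control range of the 10 genes (0.908 on the log2 scale). Its tumour-bearing levels were 7.01, 7.17, 7.20, 7.22 and 6.42, so 4 of these mice lay inside the control range. The difference was -0.27 ± 0.24 SE (limma adjusted p = 0.742) and moved between -0.56 without control 2 and -0.11 without control 1.

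Bgn stood at 8.10, 8.08 and 8.45 in controls and at 7.83, 8.19, 8.32, 8.31 and 7.53 in tumour-bearing mice. Mice 1 and 5 were again below all controls while mice 2, 3 and 4 were within their range. The Bgn difference of -0.17 ± 0.18 SE (limma adjusted p = 0.797) was -0.05 without tumour-bearing mouse 5.

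Among the rest of the proteoglycan list and its neighbours, 6 further genes were tested and 0 passed over all genes or at an unadjusted p under 0.05 (limma). Fibromodulin (Fmod), another collagen-binding family member, differed by -0.14 ± 0.18 SE and Aspn by -0.13 ± 0.16 SE. Neither sign held with 1 animal left out, at 0.0007 for Fmod without tumour-bearing mouse 5 and 0.01 for Aspn without control 3. Prelp differed by 0.07 ± 0.08 SE. Of these 6 genes 4 were lowest of all animals in tumour-bearing mouse 5.

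Mgp encodes matrix Gla protein, a secreted inhibitor of calcification that depends on vitamin K and is made by fibroblasts and also by vascular smooth muscle and endothelium. Its level was 6.36, 6.29 and 6.95 in controls and 6.87, 7.08, 7.54, 7.12 and 6.60 in tumour-bearing mice. Tumour-bearing mice 2, 3 and 4 lay above every control, and mice 1 and 5 lay between control 3 and the other two controls. The difference was 0.51 ± 0.21 SE, or 1.43-fold on the deposited scale (95% interval 0.04 to 0.98 on the log2 scale, limma adjusted p = 0.439). The pools gave 6.84 in controls and 7.24 in tumour-bearing mice. Leaving out 1 animal moved the difference between 0.39 (without tumour-bearing mouse 3) and 0.72 (without control 3), and it was 0.32 without mice 3 and 4 together.

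Genes that act with matrix Gla protein were on a list of carboxylation and BMP genes. Of its 13 other tested members 2 were higher and 11 lower, with 0 past the adjusted threshold and 0 at an unadjusted p under 0.05 (limma). Ggcx, the vitamin K-dependent carboxylase, differed by -0.10 ± 0.08 SE and Vkorc1, which recycles vitamin K, by -0.02 ± 0.10 SE, which was 0.10 without control 1. Bmp4, a ligand that matrix Gla protein can bind, differed by -0.23 ± 0.14 SE.

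The growth factor Igf2 is an imprinted, insulin-like ligand, and Igfbp2 is one of the secreted proteins that bind it. Igf2 stood at 8.53, 8.48 and 8.82 in controls and at 8.53, 8.63, 8.73, 8.75 and 8.12 in tumour-bearing mice. All but mouse 5 lay inside the control range. The difference was -0.06 ± 0.14 SE (95% interval -0.38 to 0.26, limma adjusted p = 0.922), and 0.05 without mouse 5 or without control 3. A second Igf2 probe set is shared with Igf2os in the annotation and was left out.

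Igfbp2 separated the groups: 6.26, 6.17 and 6.48 in controls against 5.66, 6.04, 6.13, 6.12 and 5.68 in tumour-bearing mice. All 5 tumour-bearing mice lay below all 3 controls, by a margin of only 0.04 between mouse 3 and control 2. Slc6a13 was the other member without overlap, so 2 of 10 members showed this pattern against 5.19% of all genes. No member had all 5 tumour-bearing mice above all controls (3.11% of all genes). The Igfbp2 difference was -0.38 ± 0.14 SE, a level 77.0% of the control's on the deposited scale (limma adjusted p = 0.400), and the pools gave 6.63 and 6.29. It kept its sign in all 23 alternatives, from -0.51 to -0.29, and its adjusted p stayed at 0.242 or above.

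Of the 14 other tested genes of the insulin-like growth factor list, 6 were higher and 8 lower, and 0 passed over all genes by limma (1 higher and 2 lower at an unadjusted p under 0.05). Igf1, the other ligand, differed by -0.34 ± 0.10 SE with all 5 tumour-bearing mice below all controls (limma adjusted p = 0.305). Igfbp7, a binding protein abundant in brain endothelium, differed by 0.40 ± 0.13 SE with all 5 above all controls (limma adjusted p = 0.327). Igfbp5, which lies next to Igfbp2 on chromosome 1, differed by 0.02 ± 0.08 SE (-0.03 when mouse 3 was left out). The receptor Igf1r differed by 0.11 ± 0.05 SE and Igf2r, which clears Igf2, by -0.09 ± 0.06 SE.

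Slc6a13 and Slc22a6 encode the transporters of the list. Slc6a13, also called GAT2, takes up GABA and taurine at the brain surface, and Slc22a6, also called OAT1, moves organic anions. Slc6a13 was 8.34, 8.14 and 8.39 in controls and 7.91, 8.09, 8.11, 8.05 and 7.19 in tumour-bearing mice. The groups did not overlap, but 4 of the 5 tumour-bearing mice sat just under the controls and mouse 5 far below them. The difference was -0.42 ± 0.19 SE (limma adjusted p = 0.488), and -0.25 without mouse 5.

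Slc22a6 was 6.57, 6.06 and 6.55 in controls and 6.08, 6.27, 6.28, 6.01 and 5.52 in tumour-bearing mice. Control 2 fell among the tumour-bearing mice, and mouse 5 was the lowest. The difference was -0.36 ± 0.19 SE (limma adjusted p = 0.533), or -0.53 without control 2 and -0.23 without mouse 5.

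Both transporter genes lie beside a relative, Slc6a12 on chromosome 6 and Slc22a8 on chromosome 19. Slc22a8, the organic anion transporter OAT3, had all 5 tumour-bearing mice below all controls and differed by -0.41 ± 0.15 SE (limma adjusted p = 0.397). Slc6a12, the betaine and GABA transporter, differed by -0.36 ± 0.17 SE (limma adjusted p = 0.506). Over the 13 tested transporters of GABA and organic ions other than the 2 members, 3 were higher and 10 lower, with 0 past the adjusted threshold and 3 lower at an unadjusted p under 0.05 (limma). Slc13a3, a dicarboxylate carrier, differed by -0.44 ± 0.19 SE (limma adjusted p = 0.469).

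Aldh1a2, or RALDH2, makes retinoic acid from retinaldehyde and had the largest difference of the 10. It stood at 7.86, 7.34 and 7.72 in controls and at 6.94, 7.31, 7.38, 7.20 and 6.23 in tumour-bearing mice. Mouse 3 overlapped control 2 and the other 4 tumour-bearing mice lay below all controls. The difference was -0.63 ± 0.24 SE, a level 64.7% of the control's on the deposited scale (95% interval -1.18 to -0.08, limma adjusted p = 0.413). The pools gave 7.88 and 7.27. Without mouse 5 the difference was -0.43, and without control 2 it was -0.78.

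The other retinoic acid genes did not share 1 direction: 9 of 14 tested were lower and the rest higher, and their median difference was -0.01. None passed the adjusted threshold by limma and 4 were lower at an unadjusted p under 0.05. Aldh1a1, a related enzyme that dopamine neurons also carry, differed by -0.78 ± 0.20 SE with all 5 tumour-bearing mice below all controls (limma adjusted p = 0.270). Stra6, a retinol uptake receptor, differed by -0.39 ± 0.16 SE and Crabp2, a retinoic acid carrier, by -0.31 ± 0.13 SE. Rdh10, which supplies retinaldehyde, differed by 0.04 ± 0.06 SE, and the receptor Rarb by -0.03 ± 0.09 SE (0.03 without control 1). Cyp26b1, which breaks retinoic acid down, differed by 0.04 ± 0.15 SE (-0.04 without control 2).

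**Figure D2:**
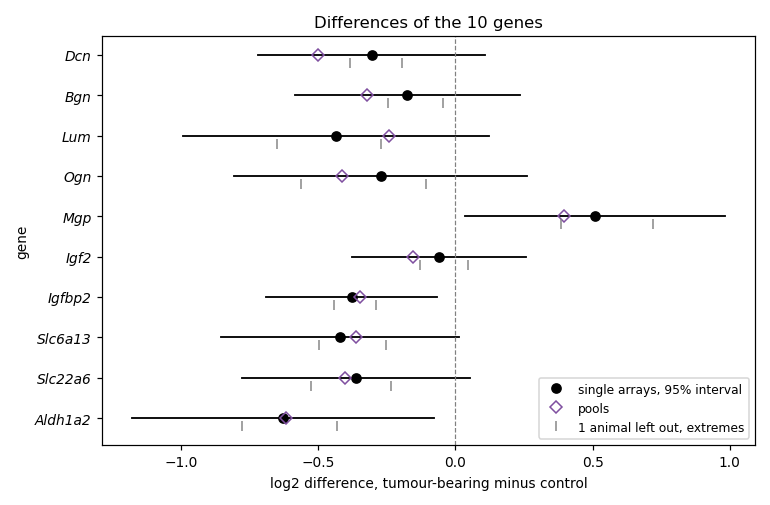
Log2 difference, tumour-bearing minus control (x axis), for each gene (y axis). Filled circles with lines are the limma estimate and its 95% interval from 3 and 5 single arrays, diamonds the difference of the pools, and ticks the lowest and highest estimate with 1 animal left out. The intervals of Mgp, Igfbp2 and Aldh1a2 lie on 1 side of 0 before adjustment, and Mgp is the gene on the positive side.

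The 10 genes shared a strong variation between animals of the same group. The SD within groups of each member lay between the 93.1 and the 99.6 percentile of all genes tested, with a median of 0.319 against 0.0989 over all genes. Other lists given below varied strongly too. The same median was 0.406 for anterior pituitary, 0.339 for midbrain and 0.247 for oligodendrocyte markers. It was 0.218 for the wider list of other fibroblast genes and 0.0751 for astrocyte markers. The range over the 8 animals had a median of 1.12 for the members and 0.309 for all genes.

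This variation ran in parallel from gene to gene. Tumour-bearing mouse 5 was the lowest of the 8 for 7 members, where it was lowest for 16.1% of all genes. Within the tumour-bearing group it was lowest for 8 of 10 (21.7% of all genes), and mouse 3 was highest for 8 and mouse 4 for the other two. Control 2 was the lowest control for all 10 (29.5% of all genes). Control 3 was the highest control for 6 and control 1 for 4.

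Averaged over the 10 genes, after each gene was centred on its mean of 8 animals, the level was 0.21, -0.10 and 0.36 in controls 1 to 3. In tumour-bearing mice 1 to 5 it was -0.26, 0.09, 0.19, 0.07 and -0.56. Mice 2, 3 and 4 thus lay above control 2, and the groups overlapped.

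**Figure D3:**
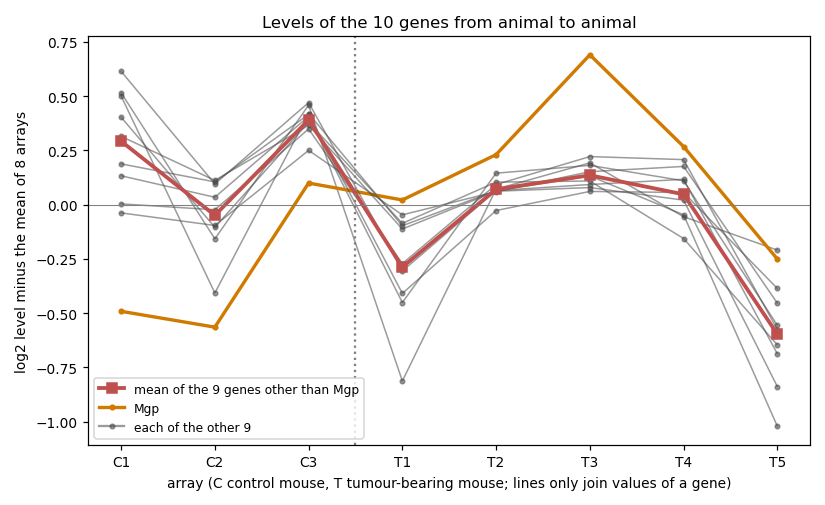
Centred log2 level (y axis, level minus the mean of 8 arrays) of each gene in control mice C1 to C3 and tumour-bearing mice T1 to T5 (x axis). Grey lines are 9 genes, the red line is their mean and the orange line is Mgp. The grey lines dip together at C2, T1 and T5, and Mgp lies below the red line in controls and above it in tumour-bearing mice.

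Mgp shared its lowest animal in each group with the mean of the other 9 genes, control 2 and tumour-bearing mouse 5. Control 1 was near control 2 for Mgp but near control 3 for that mean. The centred Mgp level minus the mean of the other 9 genes was -0.78, -0.52 and -0.29 in controls and 0.31, 0.16, 0.56, 0.22 and 0.35 in tumour-bearing mice. The 2 groups did not overlap on this quantity, and the pools gave -0.34 and 0.43. This contrast was chosen after the values were seen and is given with no test. It sets the 1 member with a positive difference against the 9 with negative ones, so part of the gap between groups is built in. Mice 5 and 1, which were lowest for the mean of the other 9 genes, also had the lowest Mgp of the tumour-bearing group.

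**Figure D4:**
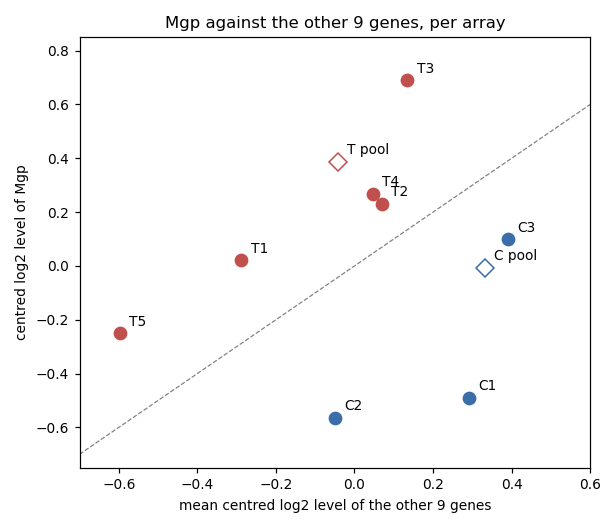
Centred log2 level of Mgp (y axis) against the mean centred log2 level of the other 9 genes (x axis) for each single array (filled) and pool (open), control in blue and tumour-bearing in red. The dashed line marks equal values. All controls lie below the line and all tumour-bearing arrays above it, in a contrast chosen after the values were seen.

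A wider list of other fibroblast genes of meninges and vessels varied in the same order at its ends. Of its 46 tested genes 33 were lower and 13 higher, 0 passed the adjusted threshold by limma, and 6 were lower and 1 higher at an unadjusted p under 0.05. Its median difference was -0.11. Control 2 was the lowest control for 35 of the 46 and mouse 5 the lowest tumour-bearing animal for 31. Gjb2, a gap junction gene of the meninges, differed by -0.64 ± 0.20 SE with no overlap (limma adjusted p = 0.326). Fbln5, an elastic fibre gene, was on the side of Mgp and differed by 0.56 ± 0.13 SE, with 4 of 5 tumour-bearing mice above all controls (limma adjusted p = 0.244). Collagens, the main fibres of this matrix, had 11 of 14 tested genes lower, and the median difference of all 14 was -0.08. Col3a1 differed by -0.31 ± 0.11 SE with no overlap (limma adjusted p = 0.369) and Col1a2 by -0.25 ± 0.14 SE.

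Outside the 10, the genes whose level over the 8 single arrays was most like the mean of the members were Pcolce (Pearson r = 0.994), Ddr2 (0.984), Bmp4 (0.984), Slc22a2 (0.970), Foxc1 (0.968) and Eya1 (0.960). Spearman's rho was 0.833 to 1.0 over the same arrays. These are descriptions of 8 arrays that share the group difference, picked as the highest of all genes tested. Each of the 6 was lowest of the 8 in mouse 5 and lowest among controls in control 2. None of them passed between the groups, with differences of -0.18 to -0.28 and limma adjusted p of 0.547 or more.

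Promoter sequences differed among genes that varied together. RefSeq's promoter table for GRCm38.p6 held 7 of the 10 members, in 13 windows, and Aldh1a2, Slc22a6, Ogn and Bgn had 1 start each. The 250 bases before that start are shown for these 4 because their levels dipped in the same animals. Capitals mark matches to the motifs searched on both strands. Aldh1a2 lies at chr9:71215539-71215788, Slc22a6 at chr19:8617746-8617995, Ogn at chr13:49607765-49608014 and Bgn at chrX:73483351-73483600, all on the plus strand.
Aldh1a2: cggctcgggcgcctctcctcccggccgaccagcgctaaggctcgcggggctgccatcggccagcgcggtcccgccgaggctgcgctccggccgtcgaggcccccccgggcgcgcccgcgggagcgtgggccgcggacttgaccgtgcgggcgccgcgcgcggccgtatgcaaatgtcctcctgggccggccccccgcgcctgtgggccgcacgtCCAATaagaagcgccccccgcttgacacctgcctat
Slc22a6: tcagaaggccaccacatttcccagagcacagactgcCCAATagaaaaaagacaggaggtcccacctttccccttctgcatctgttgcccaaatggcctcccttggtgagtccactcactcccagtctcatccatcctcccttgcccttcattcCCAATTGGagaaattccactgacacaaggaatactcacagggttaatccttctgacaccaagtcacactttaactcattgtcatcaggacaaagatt
Ogn: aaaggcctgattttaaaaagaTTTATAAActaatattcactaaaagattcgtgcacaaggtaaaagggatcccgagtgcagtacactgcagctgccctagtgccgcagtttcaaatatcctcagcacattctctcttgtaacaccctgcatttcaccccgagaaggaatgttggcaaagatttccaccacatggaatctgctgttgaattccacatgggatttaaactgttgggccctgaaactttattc
Bgn: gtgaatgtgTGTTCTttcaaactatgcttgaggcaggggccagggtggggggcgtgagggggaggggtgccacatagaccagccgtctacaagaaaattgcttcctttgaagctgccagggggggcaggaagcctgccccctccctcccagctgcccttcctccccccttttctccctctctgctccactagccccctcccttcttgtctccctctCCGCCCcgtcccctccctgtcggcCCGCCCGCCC

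Composition ran from the Aldh1a2 window, with 77.6% G and C and 40 CpG pairs, to the Ogn window, with 42.0% and 4, and the Slc22a6 window, with 48.4% and 0. Bgn had 64.4% and 7, and the median over all 32851 windows was 52.4% G and C. The CCAAT motif lay 36 bases before the Aldh1a2 start and 3 times before Slc22a6, where a match on each strand overlapped. It was in 4 of the 13 member windows and in 33.8% of all windows. The TATA motif TATAAA was in Ogn alone (12.4% of all windows), far from the start at 227 and 229 bases, with the matches on both strands overlapping. The GC box GGGCGG was in 5 member windows (32.7% of all), with 3 matches in Bgn of which a pair overlapped. The glucocorticoid receptor hexamer TGTTCT was in 3 (16.1%), the E box CACGTG in 1 (6.02%) and the AP-1 site TGAGTCA in 1 (4.46%). The forkhead core GTAAACA was in 0 of 13 (3.17%). A match describes letters only, and several starts of 1 gene share that gene.

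Markers of other cells were read on the same arrays as mean centred levels. All 16 hypothalamus markers passed the filter, which cannot check the tissue label, since 11 of 12 midbrain markers passed it too. The level of the hypothalamus markers was -0.22 to -0.11 in controls and -0.08 to 0.25 in tumour-bearing mice. Of these 14 were higher and 2 lower in tumour-bearing mice, 7 higher at an unadjusted p under 0.05 and 0 past the adjusted threshold (limma), and 5 had all tumour-bearing mice above all controls. Arachnoid barrier markers moved with the members: 6 of 7 tested were lower, with 0.25, -0.11 and 0.25 in controls and the lowest value, -0.35, in mouse 5. Among them Dpp4 differed by -0.65 ± 0.17 SE (limma adjusted p = 0.269), while Krt8 differed by 0.49 ± 0.16 SE. Crabp2 and Slc47a1 of this list are also on the wider fibroblast list, and Cldn11 is also on the oligodendrocyte list. Mural cell markers (12 of 13 lower) ran from -0.16 to 0.28 in controls and from -0.24 to 0.17 in tumour-bearing mice, and control 1 was low there, unlike in the members. Rgs5, a pericyte gene, differed by -0.39 ± 0.07 SE (limma adjusted p = 0.112). Endothelial markers (10 of 12 lower) ran from -0.10 to 0.15 in controls and from -0.10 to 0.08 in tumour-bearing mice. Macrophage markers of the borders had 5 of 11 tested, from -0.02 to 0.29 and from -0.24 to 0.09. Choroid plexus markers had 7 of 14 tested, with Folr1, Kcne2, Aqp1 and Cldn2 under the filter, and ran from -0.07 to 0.10 and from -0.17 to 0.20. The endothelial, macrophage and choroid plexus lists were also lowest in mouse 5, and the mural list in mouse 1.

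Markers of other tissue also differed between animals, and in part between the groups. Oligodendrocyte markers (10 of 10 lower) were 0.25 to 0.32 in controls and -0.47 to 0.20 in tumour-bearing mice, lowest in mouse 5, which was also lowest of the 8 for 8 of these 10 genes. Their median difference was -0.44, with 7 lower at an unadjusted p under 0.05 and 0 past the adjusted threshold (limma). Midbrain markers (11 of 11 lower) were 0.33 to 0.54 and -0.86 to 0.35, lowest in mouse 3, and so in another animal than the members. The median difference of the midbrain markers was -0.64, with 10 lower at an unadjusted p under 0.05 and 0 past the adjusted threshold (limma). Both medians were further below 0 than the -0.33 of the members. All 5 tumour-bearing mice lay below all controls for 4 oligodendrocyte and 5 midbrain genes (5.19% of all genes). Anterior pituitary markers (5 of 11 tested, Prl among those not tested) were 1.18 and 1.11 in mice 3 and 4 and at most -0.16 on the other single arrays. They were 0.94 in the tumour-bearing pool and -0.28 in the control pool. Of the blood cell list only Alas2 and Slc4a1 were tested, with 1.81 in mouse 3 and -0.95 in control 3. Tanycyte and ependymal markers (8 of 10 higher) ran from -0.21 to 0.13 in controls and from -0.06 to 0.11 in tumour-bearing mice. Astrocyte markers stayed between -0.07 and 0.04 as a list mean, but single genes differed in opposite directions. Of the 10 tested 6 were higher and 4 lower, with 3 higher and 1 lower at an unadjusted p under 0.05 (limma). Aqp4 differed by -0.51 ± 0.11 SE with all 5 tumour-bearing mice below all controls (limma adjusted p = 0.219). Agt differed by 0.28 ± 0.05 SE with all 5 above them (limma adjusted p = 0.135), and Fgfr3 by 0.17 ± 0.06 SE. The part of these other cells and of the dissection in the differences of the 10 genes was not tested. Without mice 3 and 4 the members' median difference was -0.46. These were the highest tumour-bearing animals for the members, mouse 3 for 8 genes and mouse 4 for 2. Leaving both out therefore lowers the members' tumour-bearing mean, and the value cannot speak to the dissection.

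**Figure D5:**
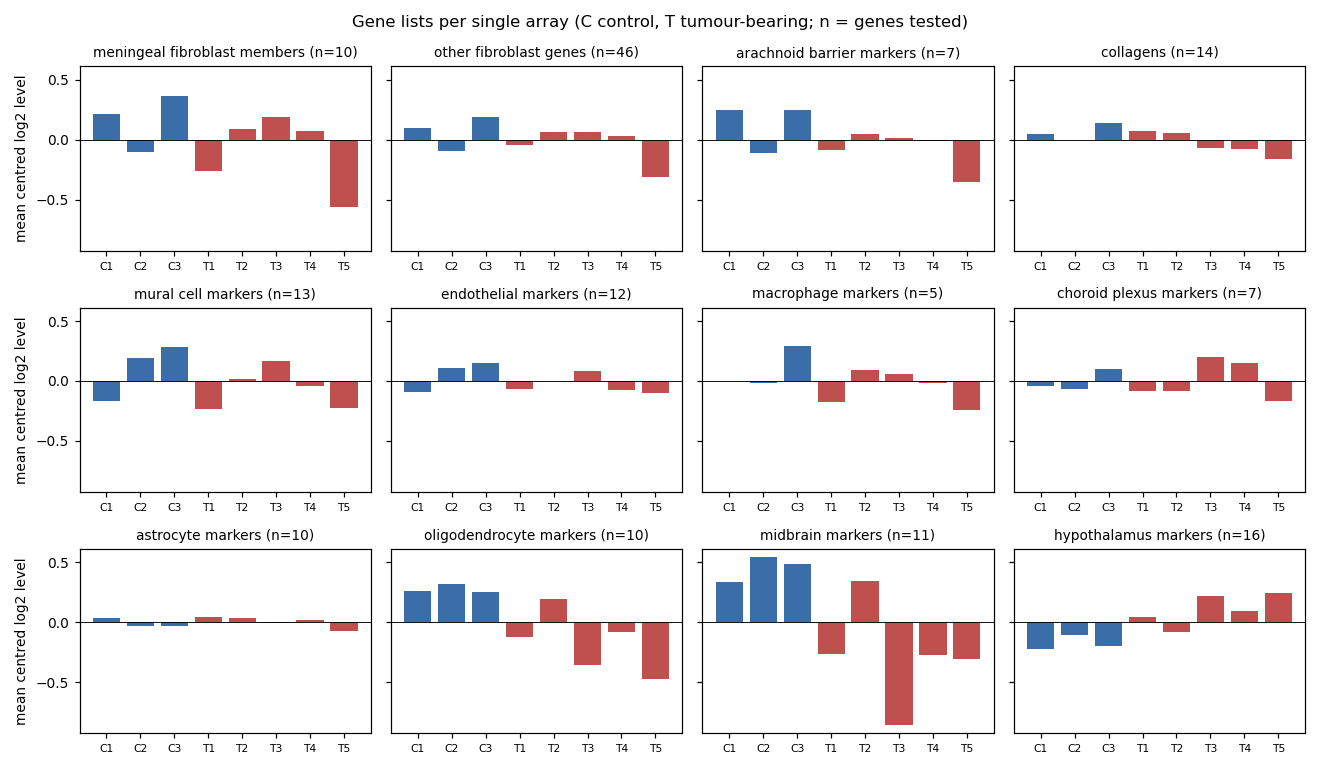
Mean centred log2 level (y axis, shared) of 12 gene lists in each single array (x axis, C1 to C3 control in blue, T1 to T5 tumour-bearing in red), with the number of genes tested. The fibroblast and arachnoid lists share a low value at C2 and the lowest at T5. T5 is also lowest for the collagen, endothelial, macrophage, choroid plexus, astrocyte and oligodendrocyte lists, while midbrain markers are lowest at T3. The lowest control is C2 for the collagen, macrophage and choroid plexus lists too.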

How the data were processed

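Total hypothalamus RNA was hybridised to Affymetrix whole-transcript arrays, 1 per sample. The authors deposited log2 levels, and the submitters' processing notes name RMA as the method. Its version, the genome build and the probe set definition are not given in the sources used here. The log2 scale was inferred from the range and from RMA. Because RMA equalises the arrays' distributions, a change common to all genes is invisible. Array medians were 5.30 to 5.32 on the single arrays, 5.27 and 5.28 in the pools, and single arrays correlated at 0.980 to 0.989 over tested probe sets. Nothing in the labels names a batch, and precision is limited by the number of arrays.

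Of 35556 probe sets 21218 were paired with 1 gene and 1881 with several. The fit took the 22837 probe sets whose log2 level passed 4.32, which is 20 unlogged, on 3 or more of the 8 single arrays, using limma 3.58.1 in R 4.3.3 (lmFit, eBayes with intensity trend). Benjamini-Hochberg adjustment ran over all of them at a threshold of 0.05. The fit was tested on simulated data. A list's level per animal is the mean of its tested genes, each centred on the 8 single arrays. Shares over all genes count 1 probe set per gene, the brightest. The members and the 19 other gene lists were chosen with earlier results of these data known. The text names all members, 6 genes most like the members, and from some lists up to 3 genes with the largest difference. Further list genes were chosen after their values were seen. For the midbrain, oligodendrocyte, hypothalamus, pituitary, endothelial, macrophage, choroid plexus and tanycyte lists the genes with the largest difference are not named. Alternatives covered the filter, variance model, array weights, normalization, replicate number as a block, pools, probe set choice and each animal left out. Figures were drawn with matplotlib 3.10.9.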

Additional observations from a re-analysis of the deposited data

Results flagged for a closer look

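Tumour-bearing mouse 5 stood apart from the other 4 for 2 members, its gap to the nearest animal taking most of the group's range. Ogn was 6.42 there against 7.01 in the next mouse, and Slc6a13 was 7.19 against 7.91. The mean centred level of the other fibroblast genes of meninges and vessels was also far lower in this mouse, at -0.314 against -0.0401. In mouse 3 the level of the 2 blood cell markers, Alas2 and Slc4a1, was 1.81 against 0.30 in the next mouse. Chance marks about 1 in 20 groups in this way, and 24 were examined, which share animals and genes.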

How the results depend on the processing

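The count of members past the adjusted threshold was 0 in all 23 alternatives, and their median difference stayed below 0, from -0.47 to -0.21. The signs of 9 members held throughout. Igf2 turned positive with the replicate number as a block (0.017), and ranged from -0.13 to 0.047 with 1 animal left out, above 0 without control 3 or tumour-bearing mouse 5. The cause was not tested. Lum could not be fitted under the 2 stricter filters, which drop it. The number of genes called over the whole table, 10, was 0 to 53 with 1 animal left out, lowest without control 3 and highest without tumour-bearing mouse 2. It was 18 above 50 on 3 arrays, 17 with array weights, 3 with no filter, 3 without the trend, 68 with only single-gene probe sets, 0 with the replicate block and 0 without tumour-bearing mice 3 and 4. The labels do not say whether equal replicate numbers pair animals. Deviations of same-numbered animals correlated at -0.00199, 0.00839 and 0.00891, and those of other combinations at -0.041 to 0.0296. These values cannot show whether animals were handled together. The members' 95% intervals are wide because 3 controls are set against genes that vary strongly between animals, and a level near the filter, as for Lum, is measured least well.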
